A study of Mus musculus with 8 samples.

Results

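Matured XCR1+ dendritic cells of the mouse spleen were compared by whether they carried a fluorescent reporter of Il12b, across every gene that the arrays measured under 1 symbol. The comparison used 5 of the study's 8 arrays, 2 from CCR7+Il12b+ cells and 3 from CCR7+Il12b- cells. The other 3 arrays, from immature cells, gave a starting level and added to the estimate of spread. Arrays were taken by their labels alone, and each of 19938 genes was followed on the row with the highest mean over the 8 arrays.

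The mice were untreated and carried the Il12b-EYFP reporter, in which yellow fluorescent protein marks activity of the Il12b gene, so reporter-negative fractions carry the same allele. Spleen cells had been sorted as free of lineage markers, negative or low for Bst2, high for CD11c and positive for CD8α. CCR7+Il12b+ cells were positive for CCR7 and EYFP, CCR7+Il12b- cells were positive for CCR7 and negative for EYFP, and immature cells lacked both. The labels call the CCR7+ cells homeostatically matured, and the comparison asks what accompanies the reporter among them. The age and sex of the mice, the pooling of spleens and the origin of replicates from separate mice are nowhere stated in the labels, so p-values reflect sample-to-sample spread that could be technical. The labels name a pair of RNA input amounts without saying which sample had which, and whether input followed the fractions was not tested.

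Interleukin 12 is a pair of chains, p40 from Il12b and p35 from Il12a, and it drives T cells and NK cells toward interferon gamma production. XCR1+ dendritic cells are the lineage specialised in taking up dying cells and presenting their antigens to CD8 T cells. Dendritic cells gain CCR7 when they mature, which lets them move toward T cell zones, and matured cells usually take up less and present what they already hold.

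Values are log2 expression values, so a difference of 1 is a 2-fold change. Array medians lay between 5.25 and 5.46 and precision is limited by how few arrays there are. The first principal component of all genes held 77.1% of the variance. It placed CCR7+Il12b- replicates 1, 2 and 3 at 8.20, 13.4 and 30.1 and the CCR7+Il12b+ replicates at 52.2 and 53.6. The immature arrays lay at -47.8, -54.0 and -55.8, so reporter-negative arrays were placed between immature and reporter-positive ones. Whether a difference goes with the reporter or with the degree of maturation was not tested. Replicate 3 of the reporter-negative fraction stood apart from its partners, toward the reporter-positive arrays, and results are given with and without it where it moves them. In sorted bulk samples, fewer cells of a type and less RNA per cell cannot be told apart.

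Of the 19938 genes, 1412 passed limma's test at an adjusted p under 0.05 (7.08%), 521 upward (2.61%) and 891 downward (4.47%) with the reporter. The median difference over all genes was 0.02. These shares are the background for the list counts below, and a count near them says nothing about its list. Of 12925 genes above the background mark set out below, tested alone, 1521 were called, 564 higher and 957 lower, which are larger shares. Lists whose members lie mostly above the mark therefore stand out less against such genes than against all genes. A change of at least 2-fold was reached by 397 of the called genes (1.99%), 93 of them higher (0.466%) and 304 lower (1.52%). Arrays of the fractions did not overlap for 5904 genes (29.6%; 15.3% higher and 14.3% lower), which include all 1412 called ones. Leaving out CCR7+Il12b- replicate 3 raised the count to 1771, of which 1274 were shared with the full set. Leaving out CCR7+Il12b+ replicate 1 lowered it to 712, CCR7+Il12b- replicate 2 to 786 and CCR7+Il12b- replicate 1 to 925. The calls of 421 genes, 124 higher and 297 lower, held whichever 1 of the 8 arrays was left out, and such calls are described here as held.

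The genes behind the sort check the labels and are no findings. Il12b stood at 10.84, 10.82 and 10.77 in CCR7+Il12b- cells and at 12.35 and 12.22 in CCR7+Il12b+ cells. The fractions did not overlap, and the reporter-negative cells were themselves far above the immature arrays, at 6.88 to 7.11, so the reporter-negative fraction carried Il12b message too. Ccr7 was at 12.22, 12.24 and 12.20 in reporter-negative and 12.77 and 12.46 in reporter-positive cells, a difference of 0.39 ± 0.14 (SE, 95% interval 0.08 to 0.70) that did not pass (adjusted p = 0.151). Both fractions were thus well above the immature arrays for Ccr7, at 8.50 to 8.86. Itgax, the gene of CD11c, was lower by a difference of -0.91 ± 0.13 in reporter-positive cells. For Cd8a the difference was -0.44 ± 0.11 (adjusted p = 0.0312), and it no longer passed when any of 6 arrays was omitted, both CCR7+Il12b+ arrays among them (highest adjusted p 0.128). Bst2 overlapped between the fractions (-0.003 ± 0.15, 95% interval -0.34 to 0.34).

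Csf1, the growth factor of macrophages and related cells, had the largest measured rise. It was at 5.83, 5.90 and 5.84 in CCR7+Il12b- cells and at 8.02 and 7.61 in CCR7+Il12b+ cells, 3.89-fold higher (1.96 ± 0.14 SE, adjusted p = 9.37e-05). Reporter-negative arrays lay close together and near the immature arrays, at 5.08 to 5.24, while both reporter-positive arrays stood clear of them. The 250 bases before its RefSeq start are shown because Csf1 led the rises and NF-kB genes are described further on. They cover chr3:107760470-107760719 of GRCm38.p6 on the minus strand, written 5′ to 3′ along the gene, with capitals marking a match, on the opposite strand, to the kappaB pattern of NF-kB (GGG, any 2 bases, then TTTCC).
Csf1 promoter: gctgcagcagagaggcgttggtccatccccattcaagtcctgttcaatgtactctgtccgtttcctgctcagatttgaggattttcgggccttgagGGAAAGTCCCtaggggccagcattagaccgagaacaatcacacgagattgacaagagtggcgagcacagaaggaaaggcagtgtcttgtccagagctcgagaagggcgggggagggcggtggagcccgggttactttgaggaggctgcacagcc
The pattern, searched on both strands and chosen after the values were seen, occurred in 1.41% of 32851 windows of this length. A match describes letters and is not evidence of binding.

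Arg2, the mitochondrial arginase that breaks arginine down, was at 5.32, 5.90 and 5.87 without the reporter and at 7.72 and 7.37 with it. It rose 1.85 ± 0.18 (SE) on the log2 scale (adjusted p = 0.000301). Psca, a small GPI-anchored surface protein of the Ly6 family, was at 4.34, 4.50 and 4.17 in CCR7+Il12b- cells, below the background mark of 4.98 set by olfactory and vomeronasal receptor genes. In CCR7+Il12b+ cells it reached 6.57 and 6.25, at least 2.70-fold higher (adjusted p = 9.37e-05). For such genes the dim fraction has only a bound, with the mark standing for each array below it. Psca was thus measurable among these fractions in reporter-positive cells alone, and the calls of Csf1, Arg2 and Psca all held.

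Ehf, an ETS family transcription factor best known from epithelia, was at 8.24, 8.25 and 8.70 without the reporter and at 10.41 and 10.23 with it, a rise of 1.92 ± 0.19. Clu, the secreted chaperone clusterin, went from 6.17, 6.43 and 6.65 to 8.56 and 7.83 (1.78 ± 0.21). Eno2, an enolase isoform typical of neurons, was at 7.09, 7.09 and 7.62 against 9.13 and 8.79 (1.70 ± 0.19). Each of these genes was already higher in CCR7+Il12b- than in immature arrays and higher again with the reporter. Gramd1b, which encodes a carrier of cholesterol from the plasma membrane to the endoplasmic reticulum, followed the same order with a small first step: it was at 7.13 to 7.17 in immature cells, 7.47, 7.72 and 7.40 in CCR7+Il12b- cells and 9.16 and 9.03 in CCR7+Il12b+ cells (1.57 ± 0.12, adjusted p = 0.000124). Most of its range thus lay between the matured fractions. The other leading rises were Dscaml1 (1.57 ± 0.16), a cell adhesion molecule, Plat (1.55 ± 0.21), the tissue plasminogen activator, Tnnt2 (1.52 ± 0.18), a troponin, Ptpn21 (1.51 ± 0.19), a tyrosine phosphatase, Rragd (1.50 ± 0.19), a GTPase that signals amino acid supply to mTORC1, and Rasa2 (1.50 ± 0.15), a brake on Ras. Idi1 and Tnfrsf4, also among the leading rises, are described with their groups, and every call among these leading rises held.

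Beside Psca, Rab23 rose at least 2.30-fold and Glt28d2 at least 2.20-fold from below the mark. Rab42 rose at least 1.87-fold, a call that ended without CCR7+Il12b+ replicate 1, CCR7+Il12b- replicate 1 or 2 or an immature replicate (up to an adjusted p of 0.238). Ccdc96 rose at least 1.57-fold, which ended without CCR7+Il12b+ replicate 1 (0.117). Rab23 and Rab42 encode small GTPases of vesicle traffic.

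**Figure D1:**
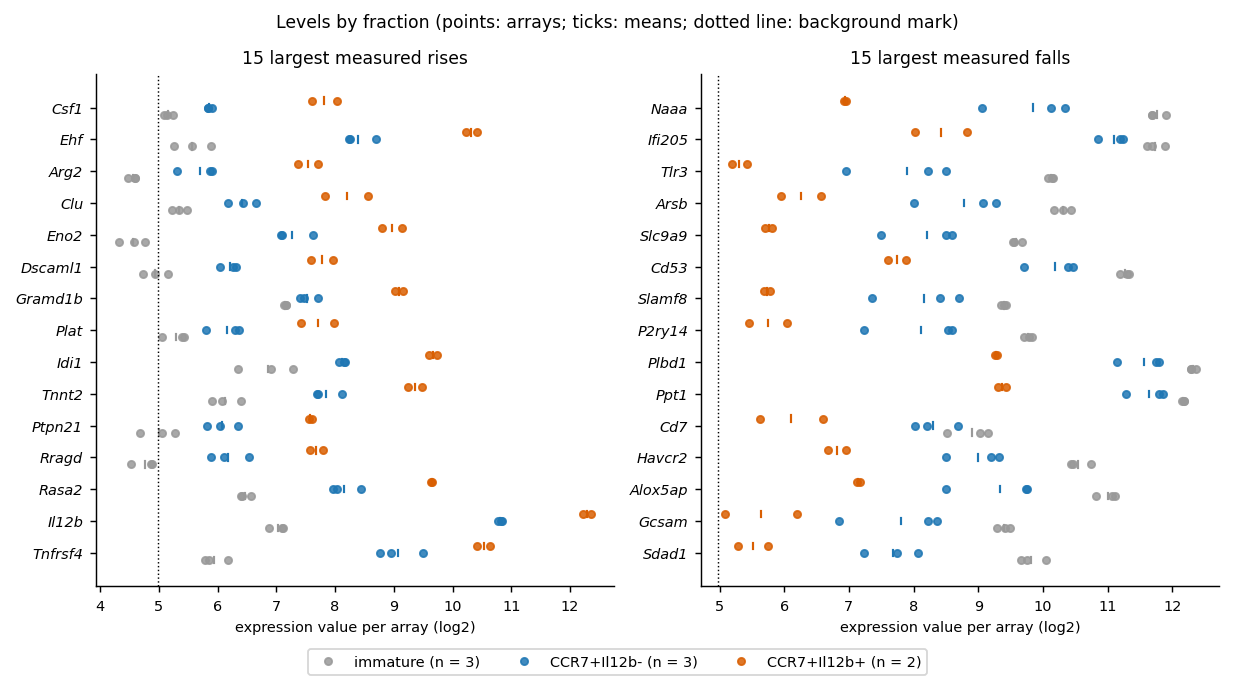
Expression value (log2) of the 15 largest measured rises (left) and the 15 largest measured falls (right), 1 point per array, with immature arrays in grey (n = 3), CCR7+Il12b- arrays in blue (n = 3) and CCR7+Il12b+ arrays in orange (n = 2), ticks at the means and a dotted line at the background mark of 4.98. In the right panel most genes run from immature through CCR7+Il12b- to CCR7+Il12b+ arrays in steps, and 1 blue point, replicate 3, often lies nearest the orange ones.

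Among 29 cytokine genes 3 rose and 3 fell, against 7.08% called over all genes, and the median difference was 0.01. Il15, whose product keeps CD8 T cells and NK cells alive, was at 9.60, 9.30 and 9.28 without the reporter and at 10.94 and 10.38 with it (1.27 ± 0.20, adjusted p = 0.00301). Il15ra, the receptor chain that presents interleukin 15 to neighbouring cells, was at 9.33, 9.47 and 9.78 against 11.02 and 10.72 (1.35 ± 0.15, adjusted p = 0.000655). The ligand and its presenting chain were therefore both higher with the reporter, neither overlapping, and both calls held. Csf1 and Il12b were the other cytokine genes that rose. The rise of Il12b follows from the sort on its reporter and is no finding. Il12a, the partner chain of Il12b, was at 5.13, 5.42 and 4.84 against 5.03 and 5.45, near the background mark in both fractions, with a difference of 0.11 ± 0.19 (95% interval -0.30 to 0.51). Ebi3, another partner of the family, differed by 0.11 ± 0.11 (interval -0.15 to 0.36) and did not pass.

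Il1b, the inflammatory interleukin 1 beta, was lower with the reporter, at 10.38 and 9.67 against 11.42, 11.40 and 10.99 (-1.25 ± 0.21). Il18 fell at least 1.74-fold to below the mark, and Tgfb1 differed by -0.96 ± 0.24, a call that ended without any of 6 of the arrays (highest adjusted p 0.162). Of 31 cytokine receptor genes, 4 were called higher and 5 lower. Those whose calls held were Il15ra upward and, downward, Ifngr1, a chain of the interferon gamma receptor (-1.80 ± 0.21), Il6st, the shared receptor chain gp130 (-1.55 ± 0.16), and Kit, the stem cell factor receptor (-1.29 ± 0.16). The rises of Il7r (0.68 ± 0.17), Il4ra (0.63 ± 0.16) and Il21r (0.62 ± 0.15) each ended without single arrays, CCR7+Il12b+ replicate 1 among them, with adjusted p up to 0.190, 0.232 and 0.151. The lower count was 3 without CCR7+Il12b+ replicate 1 or CCR7+Il12b- replicate 1 or 2.

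The TNF superfamily list of 24 genes had 4 called higher and 1 lower. Tnfrsf4, the receptor OX40, was at 8.95, 8.77 and 9.49 without the reporter and 10.64 and 10.41 with it (1.46 ± 0.20, adjusted p = 0.00163). Fas, the death receptor, was at 8.96, 9.14 and 9.47 against 10.53 and 10.44 (1.29 ± 0.17). In both genes replicate 3 was the highest of the reporter-negative arrays, still below both reporter-positive ones. Cd70, the ligand of CD27 on T cells, was at 5.23, 5.65 and 5.26 against 6.44 and 6.31 (0.995 ± 0.18), and its call ended without CCR7+Il12b+ replicate 1 (adjusted p = 0.0668). Tnfrsf11a, the receptor RANK, differed by 0.69 ± 0.15, which ended without CCR7+Il12b+ replicate 2 (0.115) and without CCR7+Il12b- replicate 1 or 2. Tnfrsf21, the death receptor DR6, differed by -1.001 ± 0.13.

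Co-stimulation did not move in 1 direction. In the B7 and co-inhibitory list of 20 genes, 2 were called higher and 5 lower, with 3 lower after omission of either CCR7+Il12b+ array or of CCR7+Il12b- replicate 1 or 2. Pvr, the CD155 ligand of DNAM-1 and TIGIT, differed by 1.10 ± 0.19 and lost its call without CCR7+Il12b+ replicate 1 (adjusted p = 0.0594). Cd200 differed by 0.66 ± 0.17 and lost its call without CCR7+Il12b+ replicate 1 too (0.262). Havcr2, the gene of TIM-3, fell from 9.32, 9.19 and 8.50 to 6.68 and 6.96 (-2.18 ± 0.22, adjusted p = 0.000331). Btla, an inhibitory receptor, fell by 1.24 ± 0.19, and these calls held. Cd86 differed by -0.68 ± 0.14, a call that ended without CCR7+Il12b+ replicate 2 (0.102) or CCR7+Il12b- replicate 2. Cd80 differed by -0.51 ± 0.14 (adjusted p = 0.0568), Cd40 by 0.26 ± 0.11 (0.229), Cd83 by 0.13 ± 0.15 (0.748) and Cd274, which encodes PD-L1, by -0.10 ± 0.15 (0.837); none of these passed. For Cd40 and Cd274 the CCR7+Il12b- arrays were about as high as the CCR7+Il12b+ arrays, with immature arrays below both.

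Of 23 NF-kB genes 4 were called higher and none lower, with a median difference of 0.31. Birc2, the ubiquitin ligase cIAP1, differed by 0.69 ± 0.12 and Ikbkb, a kinase of the pathway, by 0.66 ± 0.13. Traf5 (0.55 ± 0.14) and Tnfaip3, the feedback inhibitor A20 (0.50 ± 0.13), were the others. Without CCR7+Il12b+ replicate 1 the count was 0 and the median 0.11, and without CCR7+Il12b+ replicate 2 it was 6 with a median of 0.41. Both CCR7+Il12b- replicates 1 and 2, left out singly, gave 2, as did immature replicate 3. Relb, a subunit that rises with maturation, was at 9.71, 9.73 and 9.88 against 10.15 and 9.74, overlapping (0.17 ± 0.14). Among 17 interferon regulatory factor and STAT pathway genes, Irf1 differed by 0.94 ± 0.18, which ended without CCR7+Il12b+ replicate 1 (adjusted p = 0.0866), and Irf7, the amplifier of type I interferon, fell from 8.02, 8.57 and 8.35 to 6.77 and 6.43 (-1.71 ± 0.17).

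Cholesterol synthesis was the list with the largest median rise. Of its 20 measured genes 9 were called higher, against 2.61% over all genes, and none lower, with a median difference of 0.55. The called genes span the route, from Hmgcs1, which makes HMG-CoA, through Mvd and Idi1 in the isoprenoid steps and Fdft1 and Sqle around squalene, to Cyp51, Msmo1 and Sc5d on the sterol ring, with Insig1, the sterol sensor partner. Idi1 was at 8.17, 8.07 and 8.15 without the reporter and at 9.74 and 9.60 with it (1.54 ± 0.21, adjusted p = 0.00163). Hmgcs1 was at 8.50, 8.80 and 8.60 against 10.17 and 9.51 (1.21 ± 0.20). In both genes the fractions stood apart, and in Hmgcs1 the replicate 1 of CCR7+Il12b+ cells was the higher by more than the reporter-negative arrays differed among themselves.

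Fdft1 differed by 1.02 ± 0.17, Msmo1 by 1.09 ± 0.18, Sqle by 0.96 ± 0.18 and Sc5d by 0.81 ± 0.17. Cyp51 (0.70 ± 0.18), Insig1 (0.70 ± 0.18) and Mvd (0.67 ± 0.17) were nearer the threshold. The count depended on 1 array: without CCR7+Il12b+ replicate 1 it was 2, Idi1 and Fdft1, and the median 0.38, while without CCR7+Il12b+ replicate 2 it stayed at 9 with a median of 0.67. It was 6 without CCR7+Il12b- replicate 1 or 2 and 8 without replicate 3. Of 12 liver X receptor targets, which respond to sterol excess, none were called higher and 2 lower, Scd1 (-0.55 ± 0.15) and Lpcat3 (-0.44 ± 0.12). Both calls ended after omission of any 1 of 6 or more of the arrays.

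Promoters are shown for the first enzyme of the list, its largest rise and a gene of the sterol steps, since these genes moved together. The sequences are the 250 bases before the RefSeq start, 5′ to 3′ along the gene, from GRCm38.p6: Hmgcs1 at chr13:119690101-119690350 (plus strand), Idi1 at chr13:8885356-8885605 (plus) and Cyp51 at chr5:4104698-4104947 (minus). Capitals mark CCAAT on either strand (ATTGG when reversed) and, in Hmgcs1, TCACCCCAC, a match to TCACNCCAC, the sterol regulatory element pattern.
Hmgcs1 promoter: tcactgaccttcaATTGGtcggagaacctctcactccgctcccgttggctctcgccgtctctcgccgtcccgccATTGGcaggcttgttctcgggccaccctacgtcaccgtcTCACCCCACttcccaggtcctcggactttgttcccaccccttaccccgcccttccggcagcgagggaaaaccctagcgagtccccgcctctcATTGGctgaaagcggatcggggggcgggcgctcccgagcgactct
Idi1 promoter: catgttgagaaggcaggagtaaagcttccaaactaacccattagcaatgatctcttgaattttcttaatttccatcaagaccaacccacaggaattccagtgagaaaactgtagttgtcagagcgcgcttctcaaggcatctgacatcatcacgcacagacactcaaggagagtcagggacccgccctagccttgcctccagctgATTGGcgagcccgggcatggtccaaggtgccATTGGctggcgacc
Cyp51 promoter: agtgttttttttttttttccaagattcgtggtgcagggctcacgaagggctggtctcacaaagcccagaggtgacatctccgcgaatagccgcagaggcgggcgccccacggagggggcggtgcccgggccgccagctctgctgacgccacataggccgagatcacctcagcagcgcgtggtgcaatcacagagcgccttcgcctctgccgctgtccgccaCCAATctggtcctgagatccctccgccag
Hmgcs1 held 3 CCAAT boxes and the sterol pattern, Idi1 held 2 CCAAT boxes and Cyp51 held 1. Both patterns were searched on both strands without overlap between them and were chosen after the values were seen. A CCAAT box occurred before at least 1 start of all 16 cholesterol genes found in the promoter table, 7 of them called, against 37.5% of all 27025 genes in that table. The sterol pattern occurred in 1 of the 16, Hmgcs1, against 1.23% of all genes. Since called and uncalled members alike hold a CCAAT box, the pattern does not separate them.

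**Figure D2:**
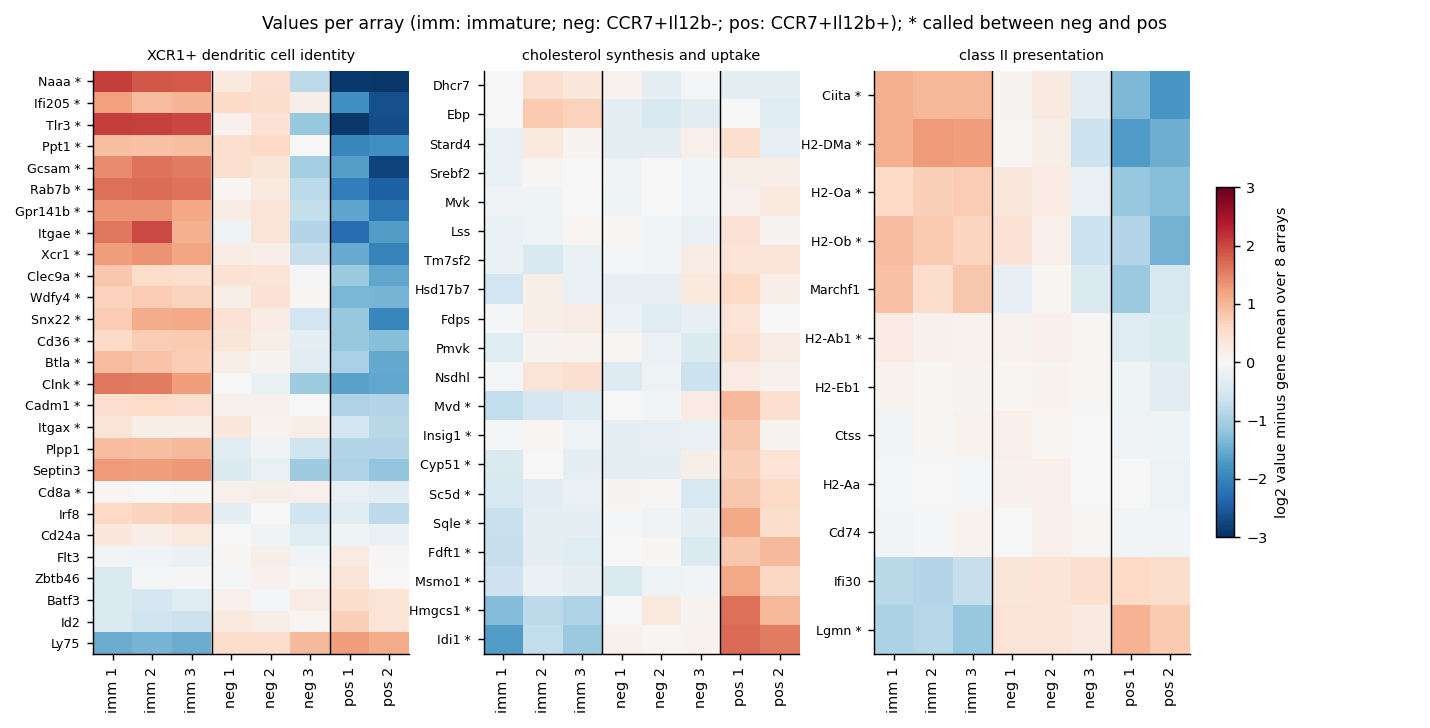
Values per array as log2 value minus the gene's mean over the 8 arrays, for the XCR1+ dendritic cell identity, cholesterol and class II lists, with immature (imm), CCR7+Il12b- (neg) and CCR7+Il12b+ (pos) arrays and asterisks at genes called between the CCR7+ fractions. Identity genes are darkest blue in both pos arrays with neg 3 between, cholesterol genes are red in both pos arrays and more so in pos 1, and in the class II list Ciita, H2-DMa, H2-Oa and H2-Ob fall while Cd74 and H2-Aa hardly change colour.

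The genes that define the XCR1+ lineage were lower with the reporter. Of 27 identity genes 18 were called lower, against 4.47% over all genes, none was called higher, and the median difference was -1.24. Without CCR7+Il12b- replicate 3 the counts were 20 lower and 1 higher and the median -1.47, and 13 of the falls held. The mean of the identity genes ran from 10.005 to 10.07 over immature arrays and from 8.98 to 9.53 over CCR7+Il12b- arrays. Over CCR7+Il12b+ arrays it ran from 8.07 to 8.32. This mean was thus already lower in reporter-negative than in immature arrays, and lower again with the reporter. Naaa, a lysosomal acid amidase, had the largest measured fall of all genes, from 10.12, 10.34 and 9.06 to 6.95 and 6.93, 7.47-fold lower (-2.90 ± 0.29, adjusted p = 0.000331). Replicate 3 was the lowest reporter-negative array by more than 1 unit and still stood clear of both reporter-positive arrays. Tlr3, the sensor of double-stranded RNA, fell from 8.22, 8.51 and 6.95 to 5.20 and 5.42 (-2.59 ± 0.34). Xcr1, the chemokine receptor of the name, fell from 9.85, 9.83 and 8.94 to 8.12 and 7.64 (-1.66 ± 0.25).

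Ppt1, a lysosomal thioesterase, fell from 11.79, 11.86 and 11.28 to 9.30 and 9.43 (-2.28 ± 0.16). Clec9a, which binds actin exposed on dead cells, fell by 1.61 ± 0.18, and Wdfy4, needed for cross-presentation in this lineage, fell by 1.60 ± 0.13. Cadm1, an adhesion molecule, fell by 0.98 ± 0.11, Rab7b fell by 2.13 ± 0.25 and Ifi205 fell by 2.67 ± 0.21. The falls of Gcsam and Snx22 ended without CCR7+Il12b+ replicate 2 (adjusted p = 0.0961 and 0.0933), that of Itgae, the integrin CD103, without CCR7+Il12b+ replicate 1 (0.118), and that of Clnk without either (0.124 and 0.0984) and without CCR7+Il12b- replicate 1 or 2.

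Batf3 and Irf8, transcription factors that specify the lineage, were not called lower, though the interval of Irf8 includes a fall. Batf3 was at 9.75, 9.57 and 9.83 against 10.13 and 10.002 (0.35 ± 0.12, 95% interval 0.09 to 0.62, adjusted p = 0.127). Irf8 was at 10.03, 10.33 and 9.71 against 9.99 and 9.52, overlapping (-0.27 ± 0.19, interval -0.68 to 0.14). Zbtb46, a marker of conventional dendritic cells, differed by 0.16 ± 0.15 (interval -0.18 to 0.50). None of them passed, while within the list of 39 dendritic lineage transcription factors 8 were called lower, 5 without CCR7+Il12b+ replicate 2, and 2 higher. Bcl11a fell from 7.69, 7.89 and 7.49 to 6.23 and 5.83 (-1.66 ± 0.16) and Ikzf1, the gene of Ikaros, from 8.81, 8.94 and 8.87 to 7.72 and 7.81 (-1.10 ± 0.13). Runx3 fell by 0.91 ± 0.15 and Runx1 by 0.90 ± 0.14, and these 4 calls held. Mycl, the MYC relative of this lineage, fell by 1.23 ± 0.22, which ended without CCR7+Il12b+ replicate 1 (adjusted p = 0.0837), and Myc by 1.01 ± 0.25, which ended without CCR7+Il12b+ replicate 2 (0.258) among others. Mxd1, a repressor that competes with MYC for MAX, differed by 0.70 ± 0.14 and ended without CCR7+Il12b+ replicate 1 (0.103).

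Class II presentation genes leaned lower with the reporter, and the falls of at least 2-fold were in regulator and loading genes. Of 12 genes 5 were called lower and 1 higher, with a median difference of -0.39. The difference was positive for 2 of them. Arrays of the fractions did not overlap for any of the 12, against 29.6% of all genes without overlap. Ciita, the master regulator of class II transcription, fell from 8.91, 9.10 and 8.52 to 7.47 and 7.08 (-1.57 ± 0.17, adjusted p = 0.000542). H2-DMa, which helps load peptide, fell by 1.46 ± 0.21, and H2-Oa, which restrains that loading, by 1.33 ± 0.16. Those 3 calls held, and the lower count was 3 without CCR7+Il12b+ replicate 1 or CCR7+Il12b- replicate 1 or 2. H2-Aa and Cd74 were at 12.02 to 12.60 in all matured arrays and differed by -0.17 ± 0.11 (interval -0.42 to 0.08) and -0.14 ± 0.11 (interval -0.39 to 0.11). H2-Ab1 differed by -0.48 ± 0.11, a call that ended without either CCR7+Il12b+ replicate among others (highest adjusted p 0.0927). In class I presentation, 1 of 16 genes was called higher (Tapbpl, 0.50 ± 0.13, lost without CCR7+Il12b+ replicate 1 among others) and 1 lower, Wdfy4. Together they are 12.5% of the list, against 7.08% over all genes.

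A minority of sensors and uptake receptors fell. Of 22 Toll-like and cytosolic sensors 5 were called lower and none higher, with a median difference of -0.35. Tlr3 and Nod1, a sensor of bacterial wall fragments (7.48, 7.14 and 7.43 against 6.01 and 5.71, -1.49 ± 0.15), held. Nlrp3 fell at least 1.81-fold and lost its call without CCR7+Il12b+ replicate 1 (adjusted p = 0.101). Tlr13 (-0.98 ± 0.24) and Unc93b1 (-0.52 ± 0.12) lost theirs without CCR7+Il12b+ replicate 1 or CCR7+Il12b- replicate 1 or 2, among others, and without any of these or immature replicate 2 the list's count was 3. Of 27 uptake and clearance receptors 6 were called lower and none higher, with a median of -0.10. Beside Havcr2 and Clec9a, Fcer1g, the signalling chain of Fc receptors, fell by 1.38 ± 0.17 and the scavenger receptor Cd36 by 1.29 ± 0.17, and these 4 held. Genes of the lysosomal list were called in both directions, with 6 of 29 lower and 4 higher, and 1 higher without CCR7+Il12b- replicate 2. The lysosomal genes Ppt1, Plbd1 and Arsb, described elsewhere among the largest falls, are outside this list and not in its counts. A change of at least 2-fold was reached by 3 of the falls and 0 of the rises. Naaa, Lipa, the acid lipase (-1.38 ± 0.18), and Ctsc (-0.61 ± 0.11) fell and Gaa, the acid glucosidase, rose (0.71 ± 0.13) in calls that held.

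Interferon-stimulated genes were lower in 8 and higher in 1 of 31, with a median difference of -0.25. Beside Irf7, Ifitm3, an antiviral membrane protein, fell from 10.33, 10.49 and 10.27 to 8.45 and 9.03 (-1.62 ± 0.18), and Irgm1, an immunity-related GTPase, fell by 1.22 ± 0.18. These 3 held. Without CCR7+Il12b+ replicate 2 or CCR7+Il12b- replicate 2 the lower count was 5, and Herc6, the single gene called higher (0.78 ± 0.16), lost its call without CCR7+Il12b+ replicate 1 (adjusted p = 0.109). Ly6e, an interferon-inducible GPI-anchored protein, fell from 12.02, 12.22 and 11.85 to 9.88 and 10.32 (-1.93 ± 0.16, adjusted p = 0.000124).

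Chemokine calls went in both directions. Cxcl9 and Cxcl10, ligands of CXCR3 on effector T cells, were lower with the reporter: Cxcl9 was at 11.93, 11.97 and 11.81 against 10.46 and 10.68 (-1.33 ± 0.12, adjusted p = 0.000207), and Cxcl10 at 10.36, 10.44 and 9.98 against 9.21 and 9.45 (-0.93 ± 0.15). Ccl19, a ligand of CCR7, was at 9.18, 8.76 and 9.10 against 9.83 and 9.60 (0.70 ± 0.15), and its call ended without CCR7+Il12b+ replicate 1 (adjusted p = 0.134) or CCR7+Il12b- replicate 2. Ccl22, a ligand of CCR4, differed by 0.57 ± 0.15 and its call ended without any of 6 of the arrays (up to 0.175). In the whole list of 20 chemokines 2 were called higher and 4 lower, and the 2 that held were Cxcl9 and Cxcl10. Without CCR7+Il12b+ replicate 1 or CCR7+Il12b- replicate 2 none was called higher.

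Among 24 chemokine and positioning receptors 2 were called higher and 4 lower. S1pr1, the receptor for the lipid that guides cells out of tissue, was at 6.35, 6.32 and 6.53 against 7.60 and 7.19 (0.997 ± 0.14, adjusted p = 0.00187). Gpr183, the oxysterol receptor EBI2, went the other way, at 7.76, 8.16 and 8.38 against 6.71 and 6.68 (-1.40 ± 0.18, adjusted p = 0.00117). Here replicate 3 was the highest reporter-negative array, away from the reporter-positive ones. Both calls held, as did the falls of Xcr1 and of Ccr9, which fell at least 1.33-fold to below the mark.

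Some adhesion and cytoskeletal genes of leukocytes fell. Itgb2, the shared beta chain of leukocyte integrins, fell from 8.45, 8.74 and 8.14 to 6.61 and 6.40 (-1.94 ± 0.16, adjusted p = 0.000163). Its partner Itgal, which forms LFA-1 with it, fell by 1.37 ± 0.19. In the list of 28 integrin and adhesion genes 7 were called lower and 1 higher, with a median difference of -0.08. There, 4 falls held, Itgb2, Itgal, Cadm1 and Itgax, the last being the gene of CD11c, a marker of the sort. Without CCR7+Il12b+ replicate 1 the lower count was 4. The 30 actin and migration genes had 4 called lower and 3 higher, with a median of 0.17. Rac2 fell by 1.18 ± 0.16, Was, the actin nucleation promoter, by 1.04 ± 0.15 and Coro1a by 0.79 ± 0.14. Anxa3 differed by 0.96 ± 0.17, Fscn1, the actin bundler of mature dendritic cells, by 0.78 ± 0.20 and Swap70 by 0.63 ± 0.15, and these calls ended without CCR7+Il12b+ replicate 1 (adjusted p = 0.0695, 0.147 and 0.173), among other arrays for Fscn1 and Swap70.

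Several surface and lipid mediator genes stood out among the largest falls. Cd53, a tetraspanin, fell from 10.39, 10.46 and 9.71 to 7.61 and 7.89 (-2.44 ± 0.20), Slamf8 by 2.43 ± 0.30 and Cd7 by 2.20 ± 0.29. Plbd1, a phospholipase-like lysosomal protein, fell by 2.29 ± 0.18, Arsb, a lysosomal sulfatase, fell by 2.53 ± 0.32 and Slc9a9, an endosomal proton exchanger, fell by 2.44 ± 0.26. Alox5ap, the partner protein of leukotriene synthesis, was at 9.75, 9.74 and 8.49 against 7.17 and 7.12 (-2.18 ± 0.31). P2ry14, a receptor for UDP sugars, was at 8.54, 8.59 and 7.23 against 6.04 and 5.46 (-2.37 ± 0.34). In both of these replicate 3 lay between its partners and the reporter-positive arrays.

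Entpd1, the ectonucleotidase CD39, fell at least 3.47-fold to below the mark. Klrd1, the NK-type receptor CD94, fell at least 4.19-fold, Jaml at least 3.61-fold, Anxa1 at least 2.73-fold and Knl1, a kinetochore scaffold, at least 2.78-fold, the last losing its call without CCR7+Il12b+ replicate 1 (adjusted p = 0.0848). With Klrk1 (-1.58 ± 0.26) and Klri1 (-1.49 ± 0.19), 3 of the 5 falls among 12 NK-type receptors held, and Clec2i was the single gene called higher (0.77 ± 0.16, lost without CCR7+Il12b+ replicate 1 at 0.124). Sema6d, a semaphorin, rose from 8.33, 8.31 and 8.85 to 10.12 and 9.79 (1.46 ± 0.17), whereas Sema4d, CD100, fell by 1.24 ± 0.15, both among 17 semaphorin genes with 1 called higher and 2 lower.

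Many genes of cell division and some of DNA replication were lower with the reporter. Of 29 cell division genes 20 were called lower, against 4.47% over all genes, and none higher, with a median difference of -0.92. Of 29 DNA replication genes 10 were called lower and none higher, with a median of -0.47. The mean of the division genes ran from 7.14 to 7.57 over immature, 6.21 to 6.52 over CCR7+Il12b- and 5.42 to 5.47 over CCR7+Il12b+ arrays. Kif23, a motor of cytokinesis, fell from 7.99, 8.11 and 7.57 to 6.25 and 6.27 (-1.63 ± 0.16, adjusted p = 0.000297), Ccna2, cyclin A, by 1.83 ± 0.24 and Birc5, survivin, by 1.53 ± 0.20. Top2a differed by -1.83 ± 0.18 on the row used and by 0.59 on its other row, and with the rows averaged its call ended (-0.62, adjusted p = 0.0683). In replication, Mcm6, a helicase subunit, fell by 1.25 ± 0.17 and Rrm2, which makes deoxynucleotides, by 1.04 ± 0.16. The counts leaned on single arrays: cell division had 10 without CCR7+Il12b+ replicate 1, 12 without CCR7+Il12b+ replicate 2 or CCR7+Il12b- replicate 2, and 20 without CCR7+Il12b- replicate 3, and replication had 4 without CCR7+Il12b+ replicate 1. The falls of 7 division and 4 replication genes held. Among 22 cell cycle brakes and G1 regulators 4 were called higher and 1 lower, with a median of 0.17, and 1 was called higher without CCR7+Il12b+ replicate 1 and 2 without CCR7+Il12b- replicate 2. Ccnd1, cyclin D1, was the fall and went from 10.15, 10.43 and 10.58 to 8.87 and 9.14 (-1.38 ± 0.15), and Trp53inp1, a p53 target, rose by 0.90 ± 0.13, the calls of that list that held.

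Many genes of ribosome biogenesis fell. Of 35 biogenesis genes 17 were called lower and none higher, with a median difference of -0.68. The count lay between 12, without CCR7+Il12b+ replicate 2, and 19, without CCR7+Il12b- replicate 3, and 10 falls held. Sdad1, needed for export of the large subunit, fell from 8.07, 7.74 and 7.23 to 5.75 and 5.28 (-2.16 ± 0.23). Nop58, a core protein of small nucleolar particles, fell by 1.57 ± 0.24, Polr1a, the large subunit of RNA polymerase I, by 1.12 ± 0.16 and Fbl, fibrillarin, by 1.23 ± 0.18. The mean of the biogenesis genes ran from 7.74 to 7.92 over immature, 6.69 to 7.12 over CCR7+Il12b- and 6.12 to 6.24 over CCR7+Il12b+ arrays. None of 31 cytosolic ribosomal protein genes was called by limma, 4 had an unadjusted p under 0.05, and the differences of all 31 lay between -0.37 and 0.0023 with a median of -0.10. The difference was positive for 1 of them, and their mean value ran from 11.57 to 11.67 over CCR7+Il12b- arrays and from 11.44 to 11.55 over CCR7+Il12b+ arrays, without overlap. Of 18 aminoacyl-tRNA synthetases 7 were called lower, of which that of Farsb (-1.31 ± 0.20) held, and the count was 4 without CCR7+Il12b+ replicate 1 or immature replicate 2 and 3 without CCR7+Il12b+ replicate 2 or CCR7+Il12b- replicate 1 or 2.

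Of 25 genes of folding in the endoplasmic reticulum 7 were called lower and none higher, with a median difference of -0.41. Pdia6 was at 8.98, 8.87 and 8.68 against 7.31 and 7.61 (-1.38 ± 0.17) and Pdia4 at 7.49, 7.56 and 7.41 against 6.32 and 6.20 (-1.22 ± 0.13). Both are disulfide isomerases, and their calls held with those of Atf6 and Creld2. The count was 4 without CCR7+Il12b+ replicate 1 and 10 without CCR7+Il12b- replicate 3.

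Energy metabolism gave weaker counts. Ldha, lactate dehydrogenase, fell from 8.36, 8.63 and 7.78 to 6.69 and 6.87 (-1.47 ± 0.21), 1 of 2 glycolytic genes of 20 called lower, with none higher. That count, 10% of the list, is near the 7.08% called over all genes. Of 23 citric acid cycle genes 6 were called lower and 1 higher, and Mdh2 (-0.87 ± 0.13) was the call that held. The lower count was 2 when either CCR7+Il12b+ array was left out and 3 without CCR7+Il12b- replicate 2. Of 35 respiratory chain genes 7 were called lower with a median of -0.33, a count that was 0 without CCR7+Il12b- replicate 1 or 2, 2 when either CCR7+Il12b+ array was left out, and 3 or 4 without immature replicate 2 or 3. Among arginine, tryptophan, polyamine and retinoid enzymes, 2 of 18 were called in each direction, Arg2 and Kynu, kynureninase (-0.94 ± 0.14), in calls that held. Amino acid transporters were lower in 4 and higher in 2 of 18, with none higher without CCR7+Il12b+ replicate 1 and 1 without CCR7+Il12b- replicate 1 or 2. Slc1a5, the glutamine carrier, fell by 1.26 ± 0.17.

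**Figure D3:**
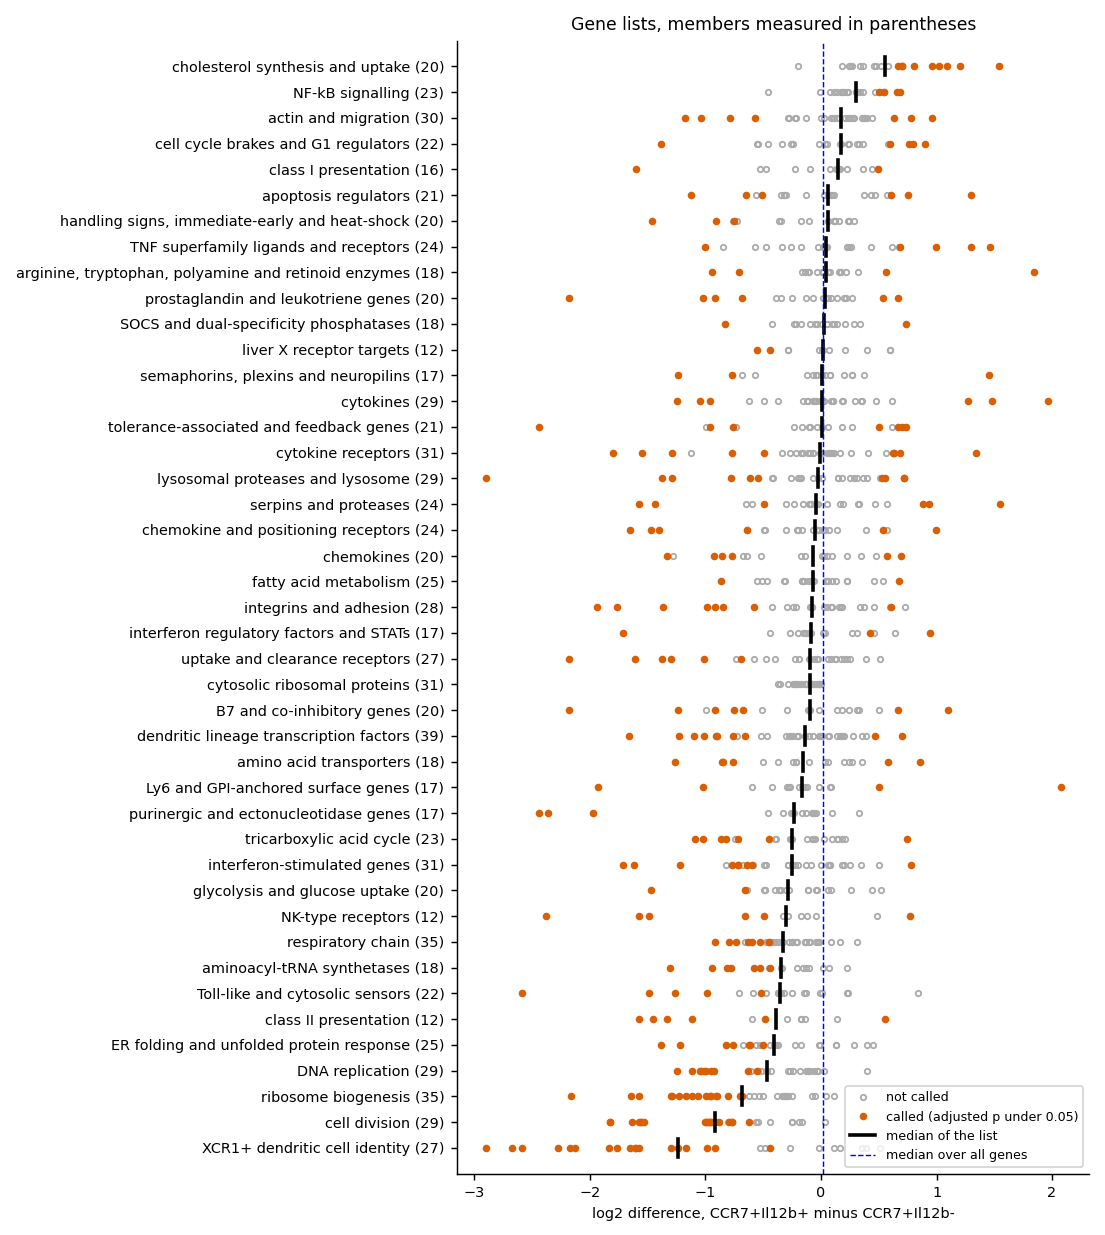
Log2 difference, CCR7+Il12b+ minus CCR7+Il12b-, of every measured member of 43 gene lists (1 point per gene, orange where called at an adjusted p under 0.05, grey where not), ordered by the list's median (black tick), with the median over all genes of 0.02 as a dashed line. The cholesterol list has the highest median, 0.55, and the identity, cell division and ribosome biogenesis lists have the lowest, -1.24, -0.92 and -0.68.

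Genes often named for tolerance did not move together. Of 21 tolerance-associated and feedback genes 4 were called higher and 3 lower, with a median of 0.01, and Entpd1 downward and Pdlim4 upward (0.70 ± 0.12) were the calls that held. Socs2, a cytokine signalling inhibitor, differed by 0.73 ± 0.18, which ended without CCR7+Il12b+ replicate 1 (adjusted p = 0.217) or CCR7+Il12b- replicate 1 or 2. Of 21 apoptosis regulators 3 were called in each direction, and Fas was the call that held.

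Markers of other cells were measured in each fraction. No gene of the B, T, NK, plasmacytoid, CD11b+ dendritic, monocyte and macrophage, neutrophil or erythroid and platelet lists was called higher with the reporter. Called lower were 2 of 12 B cell genes (Cd79b, -1.15 ± 0.20, and Cd22, -0.63 ± 0.12), 1 of 12 T cell genes (Cd4, -1.02 ± 0.18), 2 of 12 NK cell genes (Klrd1 and Klrk1, above) and 1 of 9 plasmacytoid genes (Ccr9). The same held for 5 of 17 CD11b+ dendritic cell genes (S100a4, Sirpa, Cd209a, Cd4 and Clec4a4) and 2 of 16 monocyte and macrophage genes (Lyz2, -1.65 ± 0.29, and Adgre1), and for 0 of 13 neutrophil and 0 of 9 erythroid and platelet genes. Over all genes 4.47% were called lower, against 16.7% of the B cell, 8.33% of the T cell and 16.7% of the NK cell list. The share was 11.1% of the plasmacytoid, 29.4% of the CD11b+ dendritic cell and 12.5% of the macrophage list. Without CCR7+Il12b+ replicate 1 none of the B, T, CD11b+ or macrophage genes was called. The mean B cell marker value ran from 5.43 to 5.70 over CCR7+Il12b- arrays and from 5.08 to 5.29 over CCR7+Il12b+ arrays, and the mean NK marker value from 4.66 to 4.81 and from 4.29 to 4.38. Ms4a1, the B cell gene of CD20, was at 8.91, 8.30 and 8.28 against 8.10 and 7.70. Cd3g, Cd79a and Ncr1, defining genes of T, B and NK cells, were below the mark in both fractions. They do not stand for their lists: 8 of 12 B, 7 of 12 T and 4 of 12 NK genes were above it in at least 1 fraction. Of all 19938 genes, 12727 were. The part of other cells in the falls described was not tested. Of 20 handling-associated genes, immediate-early and heat-shock genes among them, 3 were called lower, Egr2 (-1.46 ± 0.17), Fosb and Ier2, with 6 called without CCR7+Il12b- replicate 3 and 1 without CCR7+Il12b+ replicate 2.

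The position of CCR7+Il12b- replicate 3 was followed gene by gene. Of the 1771 genes called without it, it lay beyond both of its partners in the direction of the reporter-positive arrays for 1408 (79.5%), and the median share of the step covered was 34.8%. Among genes higher with the reporter that share was 29.7% over 631 genes, and among lower genes 37.8% over 1140. It was 46.2% for Tlr3, 46.2% for Xcr1 and 37.9% for Tnfrsf4. Il12b had a share of -4.12%, Csf1 of -1.38% and Gramd1b of -12.6%. Replicate 3 thus lay toward the reporter-positive arrays for Tlr3, Xcr1 and Tnfrsf4, and slightly to the other side of its partners' mean for Il12b, Csf1 and Gramd1b. The mean of replicates 1 and 2 enters both the step and the share, so these are descriptions without a test. The genes were also chosen because replicates 1 and 2 lay apart from the reporter-positive arrays. That choice can by itself place replicate 3 nearer the latter, and no share over all genes is given beside it.

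**Figure D4:**
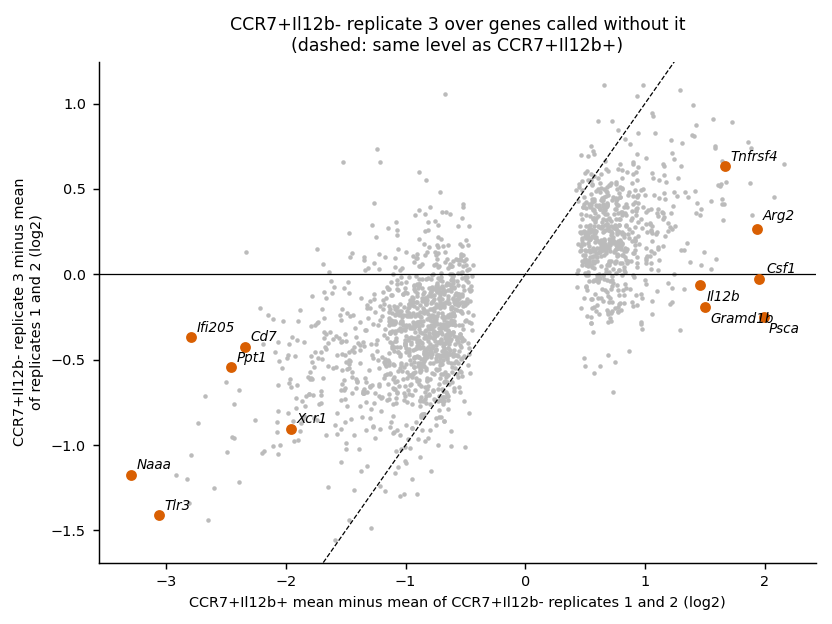
For each of 1771 genes called without CCR7+Il12b- replicate 3, the mean of CCR7+Il12b+ arrays minus the mean of CCR7+Il12b- replicates 1 and 2 (horizontal, log2) against replicate 3 minus that same mean (vertical, log2), with a dashed line where replicate 3 would equal CCR7+Il12b+ and named genes in orange. Most points lie between the horizontal line and the dashed line, while Csf1, Il12b, Gramd1b and Psca lie on or below the horizontal line at the right, Psca with all CCR7+Il12b- arrays below the background mark.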

How the data were processed

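RNA of 8 sorted samples was measured on 1 array each. The authors deposited log2 values for each probe set, for which the submitters' processing notes name RMA and oligo. Their versions and any build: not given in the sources used here. Of 35556 rows, 21789 had 1 gene symbol in the platform annotation, 1621 several and 12146 none, and the row with the highest mean stood for each of 19938 genes.

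The fit was made in limma 3.58.1 under R 4.3.3 (lmFit and eBayes) over all 8 arrays with a mean for each of 3 groups, two-sided, with Benjamini-Hochberg adjustment over all genes and 5 residual and 5.86 prior degrees of freedom. Errors are the model's standard errors. The background mark of 4.98 is the 95th percentile over 1190 genes of olfactory and vomeronasal receptors, and none was dropped for low values. The model was run on simulated data with independent noise and planted shifts. Those data held no displaced array like CCR7+Il12b- replicate 3, so that run says nothing about its effect. It was repeated on the 5 CCR7+ arrays alone, with other scalings, row rules, filters, weights and replicate blocks, and without each array.

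The fractions, the 51 gene lists (1096 measured entries, 1013 distinct genes) and the rules were chosen with earlier results of these data known. Named are the genes of the sort, Csf1, Arg2 and Psca, the 15 largest measured rises and falls, 5 bounded ones each way, up to 4 called members per list and called markers of other cells. Others, such as uncalled partners and genes of promoters, were chosen after their values were seen. Promoters and motif shares come from RefSeq, GRCm38.p6.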

Additional observations from a re-analysis of the deposited data

How the results depend on the processing

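Across 18 alternatives the direction of no called gene changed, and 418 of 1412 calls were kept in all of them. The count was 958 on the 5 CCR7+ arrays alone (327 higher and 631 lower, 929 shared), 1229 after median centring, 1618 after quantile and 1630 after cyclic loess normalization, 1405 with rows averaged, 1521 of 12925 genes above the background mark, 1304 with a trended robust prior and 1174 with array weights. Leaving out 1 array gave 712 to 1771 calls, 191 to 631 higher and 517 to 1140 lower, and the share of higher calls was 26.8% without CCR7+Il12b+ replicate 1 and 48.9% without replicate 2, against 36.9%. In those fits the lone CCR7+Il12b+ array is assumed to vary like the other groups. Bst2, not called, differed by -0.003 and changed sign after median centring (0.0132), after loess (0.0336) and with a fixed replicate block (0.0196), and its difference ran from -0.0709 to 0.101 over fits without 1 array, above 0 without CCR7+Il12b+ replicate 2 (0.00307) and CCR7+Il12b- replicate 2 (0.101). The labels do not say that replicate numbers pair samples, so numbers were not taken as pairs. Deviations of same-numbered arrays from their group means had correlations from -0.17 to 0.22. Between CCR7+Il12b- and CCR7+Il12b+ arrays they were 0.22 for replicate 1 and 0.09 for replicate 2. The deviations of the 2 CCR7+Il12b+ arrays mirror each other, so these correlations cannot decide the pairing. A fixed replicate block gave 1153 calls, 1060 of them shared, and a random block 1234 with a correlation of -0.07. Of 180 named called genes, 103 kept their call in every alternative. With 2 arrays in the reporter-positive fraction, its own spread is poorly known, and for the 116 called genes below the mark in 1 fraction the size of the change is a bound, while 20 below it in both allow none.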

Other observations

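Called genes outside the lists, picked after their values were seen, include regulators and signalling genes of blood cells. Fli1, an ETS factor of haematopoietic cells, was at 7.16, 7.51 and 6.94 in CCR7+Il12b- and 5.29 and 5.24 in CCR7+Il12b+ cells (-1.94 ± 0.16 SE, limma adjusted p = 0.000132), while Ehf, of the same factor family, rose. Parvg, which links integrins to actin, fell by 2.02 ± 0.14, Myo1f, a leukocyte myosin, by 1.89 ± 0.16, Hcls1 by 1.85 ± 0.17, Sla by 1.84 ± 0.17 and Cyth4 by 1.82 ± 0.19. Prkcb, a protein kinase C, stood at 8.45, 8.44 and 8.59 against 6.50 and 6.90 (-1.79 ± 0.14), with the immature arrays at 8.40 to 8.56. For Prkcb the reporter-negative arrays were at the immature level, and the reporter-positive arrays alone were lower.

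Among rises of the same kind, Jag1, a Notch ligand, was at 7.33, 7.41 and 7.89 against 9.19 and 8.80 (1.45 ± 0.18). Plk2, a stress-responsive kinase, rose by 1.45 ± 0.13 and Dock9, an activator of CDC42, by 1.45 ± 0.11. Nans, which makes sialic acid, was at 6.88, 6.61 and 6.81 against 8.35 and 7.88 (1.35 ± 0.17), with the immature arrays at 6.99 to 7.35. Nans was thus not higher in reporter-negative than in immature arrays, unlike Jag1. The calls of all genes in this and the preceding paragraph held whichever array was left out.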
